A study of Mus musculus with 2 samples.

Results

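The genes of major histocompatibility complex (MHC) class II presentation were described by the H3K4me1 regions around them in mouse pre-B cells. The regions were those of the deposited list that overlap 1 of 3 windows of the mm9 genome by at least 1 base. The class II window holds H2-Ab1, H2-Aa and H2-Eb1 (chromosome 17, 34380000 to 34480000), the Cd74 window holds Cd74 (chromosome 18, 60920000 to 61010000) and the Ciita window holds Ciita (chromosome 16, 10420000 to 10600000). Of the 48130 regions in the list, 36 met this rule: 15 in the class II window, 9 in the Cd74 window and 12 in the Ciita window. The rule uses position alone, and the windows were proposed with earlier results of these data known.

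The series held 2 samples, 1 chromatin immunoprecipitation library made with an antibody to H3K4me1 (monomethylation of histone H3 at lysine 4) and 1 input library made without antibody. Both came from bone marrow pre-B cells of B6 mice (C57BL/6) that were RAG1-/- and carried an already rearranged IgM transgene. The mice were 6 to 14 weeks old and of both sexes, and how many were used is not stated in the labels. Because Rag1 is needed to rearrange antigen receptor genes, B-lineage cells of these mice depend on the transgene for an IgM heavy chain. The cell type is the labels' own, since marker genes were not measured. The file header counts 50945360 tags for the H3K4me1 library, and the input served as the control in the authors' region calling. Neither group had a replicate, so no test between groups was made, and intervals below cover counting error only.

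MHC class II proteins are pairs of an alpha and a beta chain that display peptides from engulfed material to CD4+ T cells. H2-Aa and H2-Ab1 encode the alpha and beta chains of the mouse I-A molecule, and H2-Eb1 encodes the beta chain of I-E. Cd74 encodes the invariant chain, which occupies the peptide groove and guides class II proteins to the endosome. Ciita encodes the class II transactivator, a coactivator that does not bind DNA by itself but is held at class II promoters by the factors RFX, CREB and NF-Y. Mature B cells, dendritic cells and macrophages are the cells best known for class II display. H3K4me1 marks enhancers and the flanks of active promoters, and it is also found at enhancers that are not yet active, so a marked region is not a measure of expression.

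The promoters of class II genes carry a conserved module in which RFX and CREB factors bind the X box and NF-Y binds the Y box. Promoter sequences are shown for the members with an entry in the RefSeq table of build GRCm38.p6, H2-Aa and H2-Eb1, as the 140 bases before each gene's start, 5′ to 3′ on the gene's strand. H2-Ab1, Cd74 and Ciita are shown by name only. Capitals mark the X box (searched on both strands as CNAGNN followed directly by ACNGATG, where N is any base), the Y box (GATTGG, or CCAATC on the other strand) and the CREB site TGACGTCA, which was added after the sequences had been seen. The H2-Aa stretch lies at chr17:34287824-34287963 on the minus strand and the H2-Eb1 stretch at chr17:34305727-34305866 on the plus strand of GRCm38.p6. These positions are not on the scale of the mm9 regions below.
H2-Aa: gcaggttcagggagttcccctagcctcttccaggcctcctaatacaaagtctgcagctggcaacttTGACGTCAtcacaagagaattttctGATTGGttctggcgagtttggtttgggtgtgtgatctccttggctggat
H2-Eb1: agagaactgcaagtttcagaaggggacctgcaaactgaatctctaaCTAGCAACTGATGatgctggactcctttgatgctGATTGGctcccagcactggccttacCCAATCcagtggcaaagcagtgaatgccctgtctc

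In H2-Eb1 the X box ended 82 bases before the start, with 21 bases between it and a Y box. In H2-Aa the letters of the X box as searched were not in this window, and the CREB site stood 17 bases ahead of the Y box. A second Y box, on the other strand, lay 35 to 30 bases before the start of H2-Eb1. Over the 32851 promoters of the table, which run from 250 bases before to 50 after a start, 0.268% held the X box, 16.1% the Y box, 1.79% the CREB site and 0.0426% (14 promoters) both an X and a Y box. Among 19 other genes of the class II pathway, 16 had an entry, 9 of these held a Y box and 2, H2-DMb1 (a chain of the peptide editor H2-DM) and H2-Eb2, held both boxes. None of these letters measures binding, and gene positions on mm9 were not analysed here, so no H3K4me1 region is assigned to a promoter.

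In the gene order of GRCm38.p6, the protein-coding genes H2-Ob, H2-Ab1, H2-Aa, H2-Eb1, H2-Eb2 and Btnl2 follow one another. Cd74 stands between Rps14, a ribosomal protein gene, and Tcof1. Ciita stands between Tvp23a and Dexi, with Clec16a beyond Dexi. A region in a window may therefore belong to a neighbour of the named gene.

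**Figure D1:**
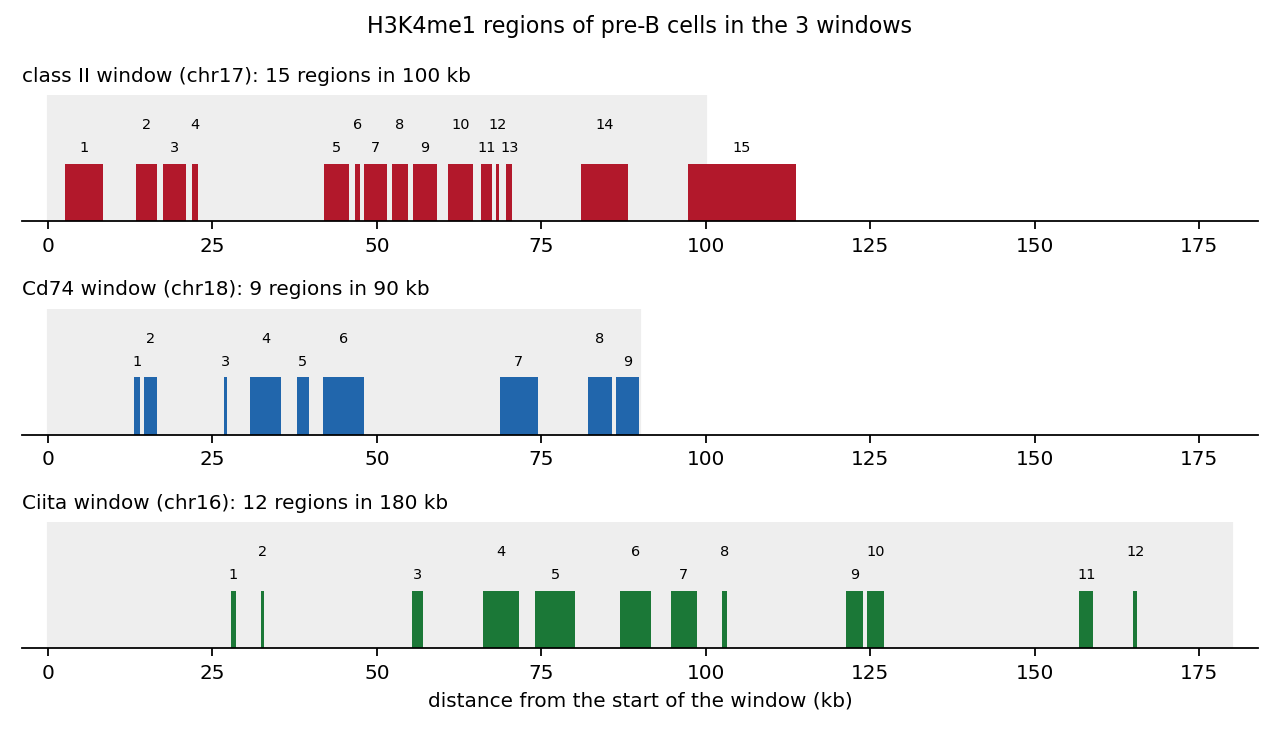
Map of the member regions. Each coloured block is 1 H3K4me1 region, drawn to scale along the distance from the start of its window (kb), the grey band is the window and the numbers give the order of the regions. The class II window is the most densely marked, with a run of 9 regions (5 to 13) near its middle, and the Ciita regions are spread over a window of 180 kb.

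The class II window was the most heavily marked of the 3. Its 15 regions covered 44.4% of 100 kb (44.4 kb), beside 4.30% of the chromosome spans over the whole list. The density was 150.0 regions per Mb (exact Poisson 95% interval 84.0 to 247.4), which is 7.99 times the 18.8 per Mb of the whole list and 6.02 times the 24.9 per Mb of chromosome 17. Regions lie close together along the genome, so this and the other counting intervals are too narrow.

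For description, the class II regions were divided at the gaps of 19.2 and 10.5 kb into 3 stretches. The first held regions 1 to 4, from 34382553 to 34402853, led by region 1 with 5750 bases (34382553 to 34388302). Regions 2 and 3 were 3109 bases (34393408 to 34396516) and 3618 bases long (34397446 to 34401063), and region 4 had 1021 bases. Only 929 and 769 bases separated regions 2, 3 and 4, whereas 5105 bases lay between regions 1 and 2.

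An unmarked gap of 19.2 kb, the widest of the window (34402854 to 34422018), came next. Beyond it, 9 regions (5 to 13) followed one another from 34422019 to 34450593. Their lengths ran from 501 to 3839 bases, and the longest were region 10 with 3839 bases (34440796 to 34444634), region 5 with 3813 bases (34422019 to 34425831) and region 9 with 3753 bases (34435420 to 34439172). The 8 gaps inside this run were 541 to 1623 bases wide, so 73.7% of its 28.6 kb was marked. Runs of at least 9 regions with no gap over 5 kb were 72 of the 29726 stitched runs in the genome (0.242%). By covered bases the run was less rare, since 508 runs (1.71%) had at least its 21.1 kb.

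The third stretch began after 10.5 kb without a region. It held the longest regions of the window, region 14 with 7118 bases (34461106 to 34468223) and region 15 with 16484 bases (34477239 to 34493722). The gap between them, 9015 bases, was only a little narrower than the 10.5 kb ahead of region 14. Region 15 crossed the edge of the window, and 13722 of its bases lay outside. On the other side, the nearest region outside, 5315 bases long, ended only 198 bases before the window. Region 1 began 2.55 kb inside the window, so no region crossed this left edge. Marked regions were thus found beyond both edges, but only region 15 crossed one. The 100 kb to the left held 13 regions covering 46.7%. The 100 kb to the right held 7, region 15 among them, covering 27.8%.

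Few parts of the genome matched the class II window. When each chromosome was tiled in steps of 100 kb between its first and last region, 60 of 25613 tiles (0.234%) held at least 15 regions. The fullest tile had 20, 53.6% of the tiles had none and the tiles with any had a median of 3. By covered bases, 163 tiles (0.636%) reached the class II window. Without the empty tiles the share with at least 15 regions was 0.505%, on chromosome 17 alone it was 0.434%, and with regions of at least 1000 bases it was 0.125%.

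**Figure D2:**
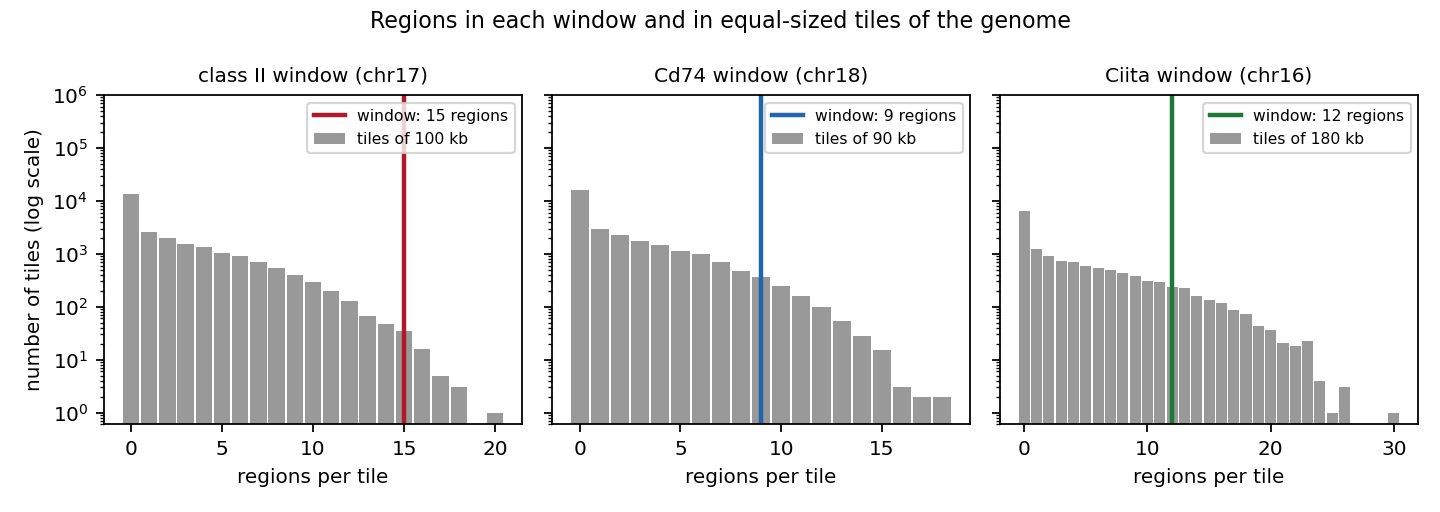
Number of H3K4me1 regions in each window (coloured line) and in all equal-sized tiles of the genome (grey bars); the x axis counts regions per tile and the y axis, on a log scale, counts tiles. The class II window, at 15 regions, stands near the end of its distribution, while the Ciita window, at 12, stands among 1184 tiles with as many or more.

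The class II regions also belonged to the stitched domain with the most regions in the list. Joining regions across gaps of up to 25 kb put all 15 into 1 domain of 512.5 kb, from 34024658 to 34537148, with 66 regions that covered 198.7 kb. Only 15 of its 66 regions overlapped the class II window, and the rest lay beyond it on chromosome 17. Its size therefore describes the neighbouring stretch more than the window. No other of the 13352 domains had as many regions (1 of 13352 is 0.00749%). The next, on chromosomes 10 and 8, had 61 and 60, and 2 domains had more covered bases. At a gap of up to 12500 bases the 19.2 kb gap split the window. Regions 1 to 4 then fell in a domain of 6 regions (31.5 kb), and regions 5 to 15 in one of 17 regions and 115.1 kb that ran on to 34537148. Domains of at least 17 regions were 83 of 20377 (0.407%).

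Narrow breaks between regions affected the class II count. Of its 14 gaps, 10 were under 2.5 kb, beside 26% of the gaps in the whole list. Joining across them left 5 stretches from the 15 regions. The authors' calling used 500-base peaks and a minimum distance of 1000 bases between peaks. How far the breaks depend on these settings was not tested.

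The Cd74 window was marked over 32.2% of its 90 kb (29.0 kb), by 9 regions. The density was 100.0 regions per Mb (interval 45.7 to 189.8), 5.32 times that of the whole list and 6.42 times the 15.6 per Mb of chromosome 18. At least 9 regions were found in 980 of 28458 tiles of 90 kb (3.44%), and at least as many covered bases in 584 (2.05%). Of these tiles 55.2% were empty. Among tiles with any region the share with at least 9 was 7.68%, and on chromosome 18 alone it was 2.16%. Of the 8 gaps in the window 4 were under 2.5 kb, beside 26% of the gaps in the whole list. Joining across these 4 left 5 stretches from the 9 regions.

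The longest Cd74 region was number 6, with 6264 bases (60961851 to 60968114). It closed a group of 4 that began at 60946773 and also held region 3 with 501 bases, region 4 with 4690 bases (60950716 to 60955405) and region 5 with 1806 bases. The gaps within this group were 3442, 2447 and 2192 bases, each wider than the widest gap, 1623 bases, in the class II run of 9. Ahead of it stood a close pair, region 1 with 895 bases and region 2 with 2000 bases, 661 bases apart.

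The widest unmarked gap of the Cd74 window, 20.5 kb (60968115 to 60988655), followed region 6. Region 7 then had 5779 bases (60988656 to 60994434). Regions 8 and 9, with 3506 bases (61002165 to 61005670) and 3572 bases (61006332 to 61009903), were again 661 bases apart, and region 9 ended just inside the window. The nearest regions outside lay 5487 bases before the window and 15678 bases after it, so no region crossed either edge.

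Fewer bases were marked on both sides of the Cd74 window, whereas only the right side held fewer regions than the window. The 90 kb to its left held 9 regions covering 23.8%, and the 90 kb to its right held 4 covering 13.6%. At a stitching gap of 12500 bases the members formed a domain of 6 regions and one of 3. Domains of at least 6 regions were 7.56% of the 20377. At 25 kb all 9 fell in a domain of 18 regions and 160.9 kb, and 2.24% of domains had at least 18.

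Covered share and density depend on how far a window reaches past the marking, and the Ciita window was the widest. It was also the most sparsely marked. Its 12 regions covered 17.6% of 180 kb (31.7 kb). The density was 66.7 regions per Mb (interval 34.4 to 116.5), 3.55 times that of the whole list and 3.66 times the 18.2 per Mb of chromosome 16. Of 14225 tiles of 180 kb, 1184 (8.32%) held at least 12 regions and 939 (6.6%) had at least as many covered bases. Without the 45.4% of tiles that were empty, the share with at least 12 regions was 15.2%. The intervals of the 3 windows overlap, which does not decide whether their densities differ. No test between windows was made, so the order of their densities is a description of this library.

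The Ciita marking was gathered in the middle of the window. Regions 3 to 8, from 10475393 to 10523206, held 22.5 of the 31.7 covered kb. Region 5 was the longest with 6053 bases (10494097 to 10500149), followed by region 4 with 5471 bases (10486124 to 10491594), region 6 with 4687 bases (10506976 to 10511662) and region 7 with 3897 bases (10514719 to 10518615). These 4 stood in a row with gaps of 2502, 6826 and 3056 bases. Region 3 ahead of them had 1625 bases and region 8 behind them 785.

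Outside this middle part no Ciita region exceeded the 2577 bases of region 9. Regions 1 and 2, at 758 and 501 bases, lay 3845 bases apart and 22.5 kb ahead of region 3. Region 9 and region 10, which had 2503 bases, formed a close pair (10541360 to 10543936 and 10544580 to 10547082) with a break of 643 bases. A gap of 29.7 kb, the widest in any of the 3 windows (10547083 to 10576774), separated them from region 11 with 2139 bases and region 12 with 679.

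The surroundings of the Ciita window held about as many regions as the window itself. The 180 kb to the left held 13 regions covering 12.0%, and the 180 kb to the right held 12 covering 18.2%. The nearest regions outside were short, 501 bases at 2014 bases from the left edge and 660 bases at 39097 bases from the right edge. Of the 11 gaps in the window 1 was under 2.5 kb, beside 26% of the gaps in the whole list. So few gaps cannot decide whether the window differs from the list. At a stitching gap of 12500 bases the middle regions made a domain of 6 regions and 47.8 kb, marked over 47.1%. The 6-region domains of the Cd74 and class II windows at that gap were marked over 46.1% and 62.7%. At 25 kb Ciita regions 1 to 10 made a domain of 10, a size that 7.57% of domains reached.

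**Figure D3:**
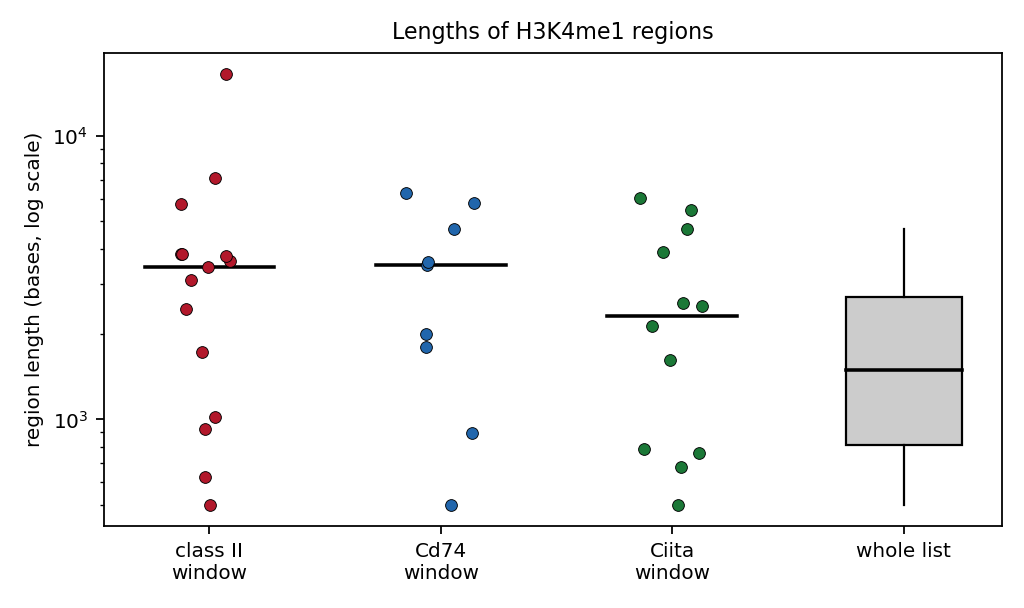
Length of each member region (points, bases on a log scale) with the median of each window (line), beside the whole list (box from the 25th to the 75th percentile, line at the median, whiskers at the 10th and 90th percentiles). Median lengths are 3439 bases in the class II window, 3506 in the Cd74 window and 2321 in the Ciita window, against 1497 in the whole list.

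Regions in all 3 windows were longer at the median than the list as a whole. Medians were 3439 bases in the class II window, 3506 in the Cd74 window and 2321 in the Ciita window, against 1497 bases (25th and 75th percentiles 813 and 2694) over all regions. Regions of at least 5000 bases numbered 3 of 15, 2 of 9 and 2 of 12 in the class II, Cd74 and Ciita windows, and made up 8.92% of the list. The exact (Clopper-Pearson) 95% intervals of these shares, 4.33 to 48.1%, 2.81 to 60.0% and 2.09 to 48.4%, all include that value. At these counts they are too wide to decide whether the windows differ from the list. Each window had 1 region of the shortest length, 501 bases, a length that 14.3% of the list shares.

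The place of a region in the deposited list gave a further description. The order of the rows is not explained in the file, and it followed neither position nor length alone. The rows were cut into blocks wherever genome order stepped back, so each block is in genome order by definition. Blocks ran to 645 rows, a form that a list sorted on another value with ties left in genome order may take. Whether the list was sorted so was not tested. That value may be the tag count, but it was not used here and the file does not name it. Longer regions stood earlier, with a median length of 6798 bases in the first 10% of the list and 501 in the last 10% (Spearman rank correlation between place and length -0.97 over 48130 regions, which share 1 library). Class II region 15 was in place 405, the earliest of all members, and region 14 in place 1933. Cd74 region 6 was in place 1991, and Ciita region 4 in place 2101. The first 50% of the list held 10 of 15 class II regions, 7 of 9 Cd74 regions and 8 of 12 Ciita regions (background 50%). The exact (Clopper-Pearson) 95% intervals of these shares, 38.4 to 88.2%, 40.0 to 97.2% and 34.9 to 90.1%, all include the background. They too are wide and cannot decide whether the windows differ from the list.

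Members were also set beside regions of like length (within 10%). More than 50% of the like-length regions came later for 9 of 15 class II regions, 7 of 9 Cd74 regions and 9 of 12 Ciita regions, beside 51% of the list. The exact 95% intervals, 32.3 to 83.7%, 40.0 to 97.2% and 42.8 to 94.5%, all include that share. They treat neighbouring regions as independent and are wide at these counts, so they cannot decide whether the windows differ from the list. Ciita region 4 stood before 96.1% of the 1346 regions of like length, Ciita region 6 before 95.7% of 1684 and Cd74 region 8 before 95.2% of 2609. Class II regions 9 and 11, inside the run of 9, stood before only 11.2% and 10.2% of theirs, and region 12, with 501 bases, before 4.95%. These shares were picked as the highest and the lowest among the 36 members. Whether they are unusual for that many regions was not tested. Class II region 15, the earliest of all members, stood before 30.3% of its 155. The order is the authors' and gives no level, and the comparison with like-length regions was chosen after the list had been seen.

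**Figure D4:**
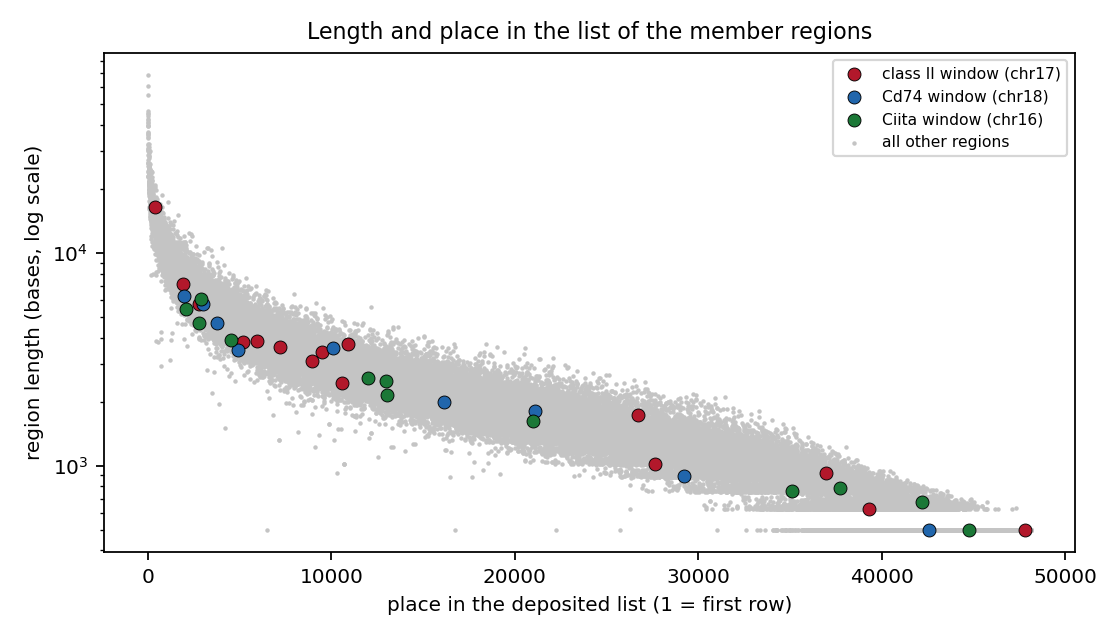
Place in the deposited list (x axis, 1 is the first row) and length (y axis, bases on a log scale) of the member regions, coloured by window, over all regions of the list in grey. Members below the middle of the grey band stand earlier than most regions of their length. Ciita regions 4 and 6, at places 2101 and 2804, are the extreme cases among the members.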

How the data were processed

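Reads were handled by the authors with Bowtie 0.12.9 and HOMER 4.7 on mouse build mm9, per the submitters' processing notes. Per the file headers, HOMER's findPeaks in histone style stitched 500-base peaks into regions, with at least 26 tags per peak and 4-fold over input. The minimum distance between peaks was 1000 bases. The deposited score holds the same value, 1, in every row and ranks nothing, so regions were described by position, length, spacing and row order. Tag counts per region were not used here.

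Positions count from 1. Regions were clipped to a window for covered bases. Tiles started at the first region of each chromosome. Chromosome Y was left out of tiles, densities and domains. All 36 regions were eligible for description, the 5 longest of each window and the widest gap in full. The windows, gene list and tests were chosen with earlier results of these data known. Counting was tested on simulated data. Python 3.11.15, numpy 2.4.6, pandas 2.3.3, scipy 1.17.1 and matplotlib 3.10.9 were used. Alternatives covered length, row order, joining, edges and tiles. Promoter sequences came from RefSeq (GRCm38.p6), whose positions were not set against mm9.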

Additional observations from a re-analysis of the deposited data

How the results depend on the processing

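Row order as a filter was chosen after seeing the data. Joining regions under 2.5 kb apart left 5 stretches in the class II window and 5 in the Cd74 window, in place of 15 and 9. It raised the covered share to 53.7% in the class II window, 38.9% in the Cd74 window and 18.0% in the Ciita window. Covered shares fell to 42.4%, 30.7% and 16.1% in the class II, Cd74 and Ciita windows with regions of at least 1000 bases, to 41.4%, 30.7% and 16.1% with regions above the median length, and to 39.6%, 30.7% and 16.1% with the first 50% of the rows. The share of tiles with at least as many regions was 0.434%, 2.16% and 9.14% on the same chromosome, 0.505%, 7.68% and 15.2% among tiles with any region, 0.125%, 3.12% and 10.1% with regions of at least 1000 bases, and 0.636%, 2.05% and 6.60% by covered bases, in the order class II, Cd74 and Ciita (as reported, 0.234%, 3.44% and 8.32%). The other region counts under these alternatives stayed within 1.5 times the reported ones. No paired analysis was possible because each group holds 1 library and the input enters only through the calling step. How far each region stands above the calling threshold was not analysed, since tags per region were not used.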

Other observations

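The rows of the deposited list were cut into blocks wherever the order by chromosome and then position stepped back. Each block is therefore in that order by definition. There were 2126 such blocks, with a median of 4 rows and at most 645. Class II regions 14 and 15 and Ciita region 4 each made a block of 1 row, whereas class II region 12 shared its block with others in 458 rows. If the rows of a block are ties, the place of a region within it follows genome order. A place may then be known only to within its block.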
